A study of Mus musculus with 18 samples.

Results

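Kruppel-like factors are described here across mouse intestinal Lgr5+ cells, as 10 named genes (Klf2, Klf3, Klf4, Klf5, Klf6, Klf7, Klf9, Klf10, Klf13 and Klf15) of 43346 genes counted. The members were chosen by name, with earlier results of these data known. All 10 were among the 26717 genes with any count, which were tested. RNA was sequenced from Lgr5+ cells of the small intestine (SI) and large intestine (LI), sorted by flow cytometry on the brightness of Lgr5-GFP. The brightest cells stand for the crypt centre, those of medium brightness for the border and the dimmest for the region above the border, called row >3. Each of the 6 groups, SI and LI centre, border and row >3, held 3 libraries, 18 in all. Every group came from untreated Lgr5eGFP-Ires-CreERT2 mice on C57BL/6, aged 8 to 20 weeks by the labels, so the controls of every comparison carried the same knock-in allele, in which GFP and an inducible Cre are driven from Lgr5. The position of a cell was therefore read from its GFP level and not seen. The labels do not say which mouse gave which library, so p-values measure the spread between these libraries.

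Kruppel-like factors are transcription factors with zinc fingers of the C2H2 kind at their carboxyl end, which bind CACCC boxes and GC boxes in promoters and enhancers. In the intestinal epithelium Klf5 is known from the dividing cells of the crypt and Klf4 from differentiated cells, goblet cells among them, where it restrains division. Other members are known mainly from other tissues, such as Klf2 from endothelium and T cells, Klf3 as a repressor that recruits Ctbp, and Klf6 and Klf10 as genes induced quickly by growth factors or TGF-beta.

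Totals ran from 8312093 counts in SI border replicate 1 to 31940965 in SI row >3 replicate 1. The epithelial markers summed to 3163 to 8202 CPM (counts scaled to the library total, with TMM factors) over the 18 libraries, with 3163 to 4424 in SI centre and 7205 to 8202 in SI row >3, where 4 of 7 were called higher. Markers of other cells were low but not all absent. Cdh5, an endothelial cadherin, was at 0 in 17 of 18 libraries, Tyrobp, of myeloid cells, and Lum, of fibroblasts, were at 0 in all 18, and the T cell gene Cd3e reached at most 0.444 CPM. Ptprc, the common leukocyte antigen, had counts in every library, with a median of 6.76 and a highest value of 26.1 CPM. Esam reached 8.22 CPM, Col1a1 6.02, Tek 4.66, Pecam1 4.50 and Lck 4.13. SI replicate 3 stood apart. Genes with at least 20 CPM in every LI library of a level and under that level divided by 20 in SI replicate 1 (51, 45 and 33 genes) reached 60.7% of the level seen in LI (median over genes) in the centre library of this replicate, 84.9% in its border library and 79.3% in its row >3 library, against 1.75%, 1.62% and 1.15% in those of replicate 2. The results of members called with SI libraries are given with and without SI replicate 3.

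Promoter sequence is shown for Klf2, Klf4 and Klf6, members called below, as the part of the window that lies before the annotated gene (221, 250 and 243 of 250 bases). The bases before the transcription start are from RefSeq (GRCm38.p6), 5′ to 3′ on the strand of the gene, at chr8:72318812-72319032 for Klf2 (plus strand), chr4:55532476-55532725 for Klf4 (minus strand) and chr13:5861239-5861481 for Klf6 (plus strand). Capitals mark CACCC and GGGCGG, read on both strands, so that GGGTG and CCGCCC are also in capitals, and neighbouring matches can overlap.
Klf2: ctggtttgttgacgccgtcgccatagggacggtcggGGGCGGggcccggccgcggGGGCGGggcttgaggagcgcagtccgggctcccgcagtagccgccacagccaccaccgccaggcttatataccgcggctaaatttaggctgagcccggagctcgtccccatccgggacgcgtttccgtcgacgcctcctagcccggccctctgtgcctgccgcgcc
Klf4: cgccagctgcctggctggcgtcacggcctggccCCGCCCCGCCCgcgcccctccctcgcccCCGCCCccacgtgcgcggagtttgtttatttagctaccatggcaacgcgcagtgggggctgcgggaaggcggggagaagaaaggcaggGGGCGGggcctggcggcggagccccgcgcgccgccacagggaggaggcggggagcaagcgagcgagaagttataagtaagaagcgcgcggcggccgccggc
Klf6: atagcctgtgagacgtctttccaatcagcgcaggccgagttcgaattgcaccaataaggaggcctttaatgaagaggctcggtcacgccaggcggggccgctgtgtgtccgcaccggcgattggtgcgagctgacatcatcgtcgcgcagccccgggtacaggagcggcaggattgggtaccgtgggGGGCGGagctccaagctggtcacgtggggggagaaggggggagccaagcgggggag

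Of the 10 members, 8 had an entry in the promoter table. GGGCGG, the GC box, was found in 7 of these 8 windows of 250 bases and in 32.7% of 32851 promoter windows of the same length. The member windows were 59.2% to 78.4% G and C, against a median of 52.4% over all promoters. CACCC was found in 6 of 8 members and in 52.0% of all. The Klf4 window held 4 GC boxes and no CACCC, the Klf6 window held 1 GC box, and the Klf2 window held 2 GC boxes with 1 CACCC that lies outside the stretch shown. These matches are a description of the letters, and binding was not measured.

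Levels between genes were compared per kilobase of exon, as normalised counts per kb. Klf5 was the highest member in every group, from 1531 per kb in SI centre to 2393 in LI row >3. Klf4 was second in every group, from 358 to 1682, and Klf6 came next, from 264 to 687. Klf3, Klf13, Klf10 and Klf9 followed with group means between 108 and 257 per kb. Klf7, Klf2 and Klf15 were the lowest in every group, and Klf15, known for its part in metabolic genes of liver and muscle, had 0 counts in SI border replicate 3. Of the genes that overlap a member and are in the count table, none passed 2.19 CPM, and C230096K16Rik, which overlaps Klf3 on the same strand, was not analysed here.

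**Figure D1:**
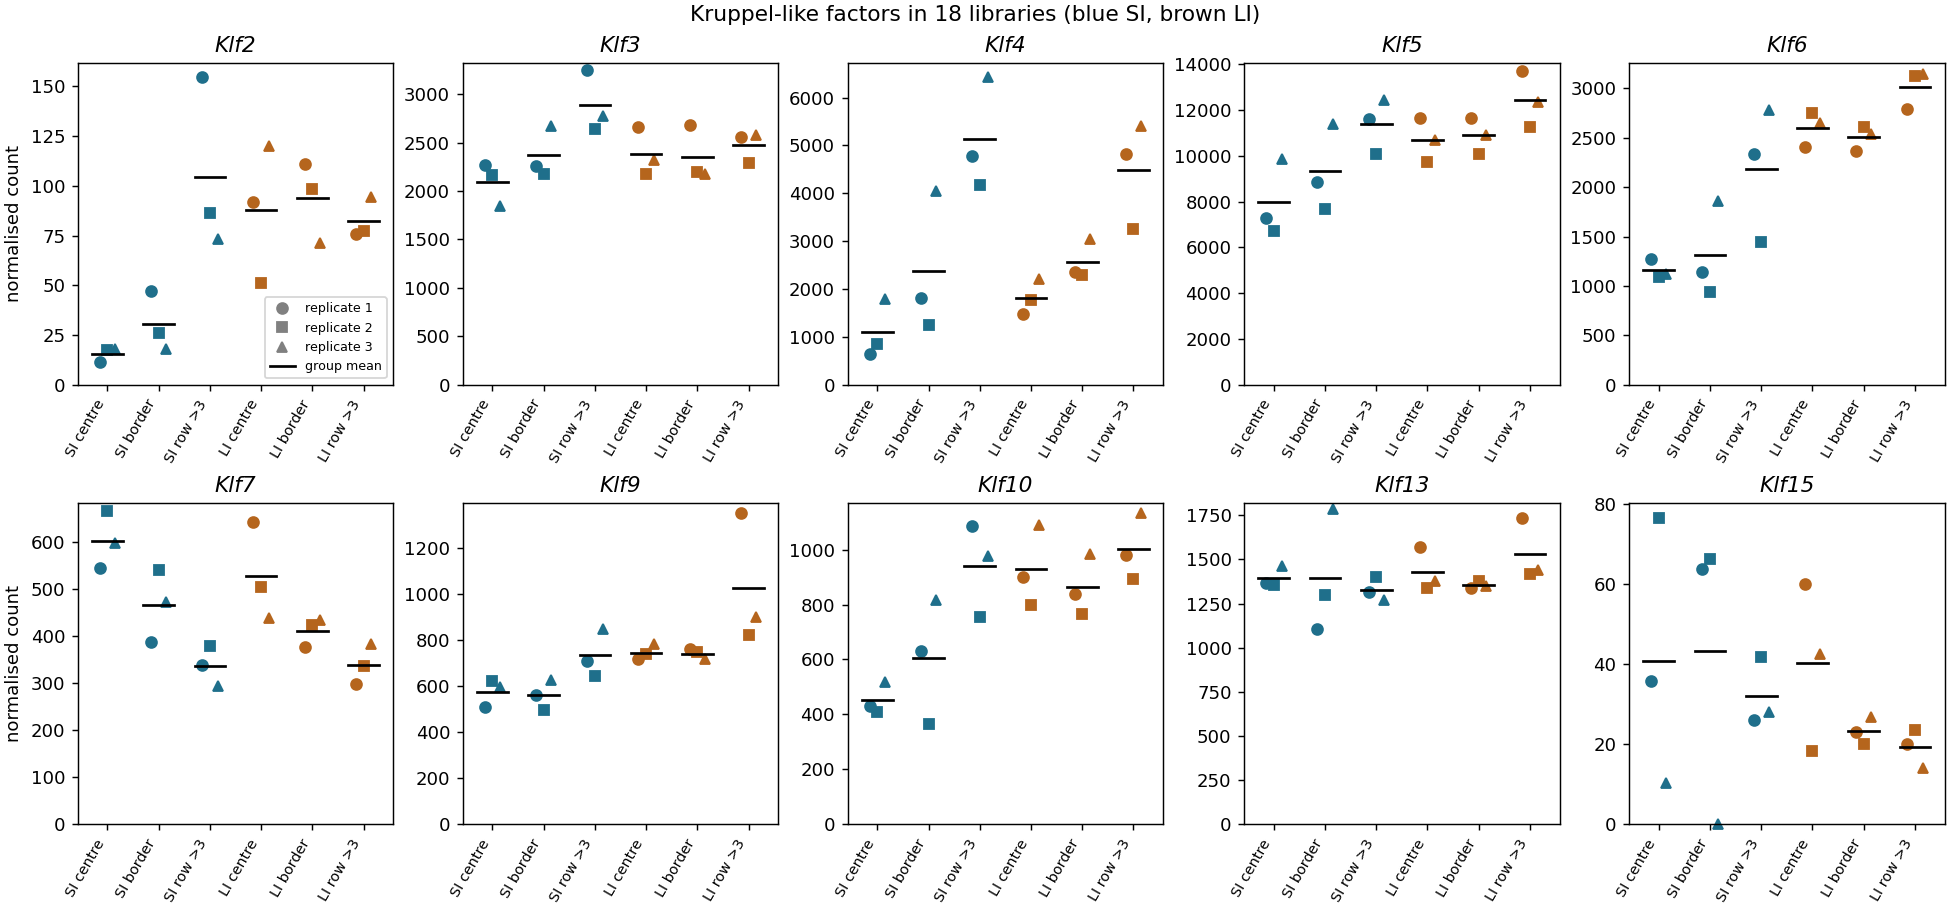
Normalised count (linear axis from 0) of each Kruppel-like factor in the 18 libraries, by group. Points are libraries, their shape the replicate number, and bars are group means (n = 3). Klf4 in SI ran from 636 to 1790 in centre cells and from 4168 to 6430 in row >3 cells.

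Row >3 cells were compared with centre cells to ask which members differ along the Lgr5 gradient. In SI, 7 of the 10 members passed the test (edgeR's quasi-likelihood test, Benjamini-Hochberg adjusted p under 0.05 over all genes), 6 higher in row >3 cells and 1 lower. Among all genes tested 13.2% passed, 7.35% higher and 5.82% lower, and among the 8690 genes with a mean of at least 10 CPM 28.6% passed. The median log2 fold change of the members was 0.49, against 0.05 for genes with at least 10 CPM. On TMM-scaled CPM, the scale of each count of groups that did not overlap, this held for 8 of 10 members and 25.1% of all genes. On normalised counts the members were the same 8. Without SI replicate 3, 6 members passed and 17.1% of all genes did.

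Klf4 had the second largest difference. Its normalised counts were 636, 853 and 1790 in SI centre, 1820, 1236 and 4046 in SI border and 4787, 4168 and 6430 in SI row >3. Replicate 3 was the highest library in each SI group, and row >3 did not overlap centre. The log2 fold change of row >3 over centre was 2.23 (SE 0.46, edgeR adjusted p = 0.00544, n = 3 and 3), a fold of 4.70. Without SI replicate 3 it was 2.60 (edgeR adjusted p = 1.21e-06).

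Goblet, absorptive and stem cell markers moved beside Klf4. The goblet summed level, over 9 genes, was 761 to 10741 CPM in SI centre, 4488 to 14146 in SI border and 32744 to 51834 in SI row >3, and 6 of the 9 rose from centre to row >3 while Clca1 fell. Fcgbp, a mucus protein, rose by 4.14 on the log2 scale. Muc2, the main gel-forming mucin, rose by 2.81, close to the threshold (SE 0.85, edgeR adjusted p = 0.0485). Of 15 absorptive markers 7 rose, with a median log2 fold change of 2.79 over the list, and Krt20, a keratin of differentiated cells, rose by 3.95. Of 8 stem cell markers 6 fell, with a median of -2.47, among them Lgr5, on which the cells were sorted. In these bulk libraries more cells of a type and more RNA per cell cannot be told apart, and the part of these cell types in the Klf4 difference was not tested.

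Klf2 had the largest difference, at low counts. Its normalised counts were 11.3, 17.5 and 17.7 in SI centre, 47.2, 25.9 and 17.9 in SI border and 155, 86.1 and 73.4 in SI row >3. All row >3 libraries were above all centre and border libraries. The log2 fold change of row >3 over centre was 2.79 (SE 0.45, edgeR adjusted p = 3.18e-04), and without SI replicate 3 it was 3.09 (edgeR adjusted p = 1.95e-04). The lymphocyte and leukocyte markers summed to 5.42, 2.73 and 15.7 CPM in SI centre replicates 1, 2 and 3 and to 11.2, 9.89 and 2.95 CPM in SI row >3, so that without replicate 3 they too were higher in row >3 cells. Over that list 8 of 13 genes had a log2 fold change above 0, with a median of 0.83, and none passed the test. The median was that of Coro1a, near the floor with a mean of 0.118 CPM in SI centre and 0.256 CPM in SI row >3. Ptprc went from 5.26 to 6.63 CPM, Lck fell from 1.67 to 0.552 CPM and Cd79a fell from 0.545 to 0 CPM. The endothelial markers summed to 6.20 to 8.31 CPM in SI centre and 2.62 to 6.06 CPM in SI row >3. There Esam fell, from a mean of 6.44 to 0.936 CPM. Over the endothelial list 4 of 8 genes had a log2 fold change above 0, with a median of 0.21. Pecam1, not called, went from 0.212 to 1.92 CPM. Klf2 itself had a mean of 0.757 CPM in SI centre and 5.10 CPM in SI row >3. The part of other cells in the Klf2 difference was not tested.

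Klf10 and Klf6 also rose. Klf10, known as an early TGF-beta response gene, had 431, 408 and 519 normalised counts in centre cells of SI against 1085, 755 and 976 in row >3 cells, without overlap. Its log2 fold change was 1.05 (SE 0.24, edgeR adjusted p = 0.00432). Klf6 went from 1270, 1089 and 1122 at the centre to 2335, 1445 and 2785 in row >3 cells, also without overlap, a log2 fold change of 0.92 (SE 0.23, edgeR adjusted p = 0.00843). Without SI replicate 3 the values were 1.14 for Klf10 and 0.69 for Klf6, both past the threshold.

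Klf5 and Klf3 had smaller differences. Klf5 went from 7296, 6708 and 9879 normalised counts at the centre to 11591, 10092 and 12432 in row >3 cells. The groups came close, with the highest centre library just under the lowest row >3 library, and the log2 fold change was 0.52 (SE 0.16, edgeR adjusted p = 0.0377). Klf3 went from 2266, 2167 and 1844 to 3252, 2644 and 2774, a log2 fold change of 0.47 (SE 0.15, edgeR adjusted p = 0.0357). Klf5 was past the threshold in 7 of 13 alternatives and Klf3 in 7 of 13. With the legacy quasi-likelihood fit Klf5 was at 0.52 (edgeR adjusted p = 0.0562). Scaled by library size alone the values were 0.33 for Klf5 (edgeR adjusted p = 0.165) and 0.26 for Klf3 (edgeR adjusted p = 0.420), and without SI replicate 3 Klf5 was at 0.64 (edgeR adjusted p = 0.00196) and Klf3 at 0.42 (edgeR adjusted p = 0.0781). With 1 library left out, Klf5 missed the threshold without SI centre replicate 1 or 2 or SI row >3 replicate 1 or 3 (0.40 to 0.51, edgeR adjusted p up to 0.203), and Klf3 without any SI centre library or SI row >3 replicate 1 (0.38 to 0.53, edgeR adjusted p up to 0.186).

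Klf7 was the member that fell. Its normalised counts were 544, 664 and 598 in SI centre, 387, 540 and 471 in SI border and 338, 378 and 293 in SI row >3. All border and row >3 libraries were below all centre libraries. From centre to row >3 it fell by 0.83 on the log2 scale (SE 0.20, edgeR adjusted p = 0.00655), and by 0.75 without SI replicate 3. Klf9, at 506, 621 and 595 in centre cells against 708, 644 and 846 in row >3 cells, did not overlap either but did not pass the test (log2 fold change 0.35, edgeR adjusted p = 0.275). Klf13 and Klf15 had log2 fold changes of -0.07 and -0.33 and overlapped.

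Border against centre cells gave no member past the threshold at either site. In SI 0.0112% of all genes passed (3 genes, with 2399 at an unadjusted p under 0.05) and in LI 0% (368 at an unadjusted p under 0.05). DESeq2 called no member in either. Libraries did not overlap for 2 of 10 members in SI (8.75% of all genes), Klf2 and Klf7, and for 1 of 10 in LI (5.44%), Klf4. On normalised counts Klf7 did not overlap in LI either. Klf4 in SI border over centre had a log2 fold change of 1.12 (SE 0.44, edgeR adjusted p = 0.460). With the replicate number as a block, since libraries of a site with the same number deviated together, it was 1.08 (edgeR adjusted p = 0.0164), in a fit that called 2.32% of all genes. When SI replicate 3 was left out it was 0.997 (edgeR adjusted p = 0.103), where 0.963% of all genes passed.

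In LI, no member passed the test between row >3 and centre cells, where 0.0187% of all genes passed (5 genes, with 1860 at an unadjusted p under 0.05). DESeq2 called none of the members either. By normalised count Klf4 stood at 1476, 1761 and 2210 in centre cells of LI, at 2350, 2293 and 3054 in border cells and at 4810, 3248 and 5411 in row >3 cells. The 3 LI groups did not overlap and lay in the order centre, border, row >3. The log2 fold change of row >3 over centre was 1.30 (SE 0.44, edgeR adjusted p = 0.550), and with the replicate block 1.30 (edgeR adjusted p = 0.00376), in a fit that called 2.59% of all genes. Goblet markers summed to 7536 to 12289 CPM in LI centre and 16333 to 25433 in LI row >3. Absorptive markers summed to 518 to 869 CPM in LI centre and 1451 to 2296 in LI row >3. The stem cell markers had a median log2 fold change of -1.77. No gene of these lists passed, and their part in the Klf4 values was not tested.

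Klf7 in LI ran the same way as in SI by value. It stood at 641, 504 and 438 normalised counts at the centre and at 297, 336 and 383 in row >3 cells, a log2 fold change of -0.63 (SE 0.20, edgeR adjusted p = 0.461). Klf9 stood at 715, 739 and 779 at the centre and at 1352, 821 and 901 in row >3 cells, a log2 fold change of 0.46 (SE 0.19, edgeR adjusted p = 0.619). Klf5 was at 0.22 (edgeR adjusted p = 0.915). On TMM-scaled CPM these 3 members and Klf4 had groups that did not overlap, as did 14.9% of all genes, while on normalised counts Klf5 overlapped and Klf6 did not. Klf2 in LI had 91.7, 51.0 and 120 in centre cells and 75.6, 77.4 and 94.3 in row >3 cells, with overlap.

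**Figure D2:**
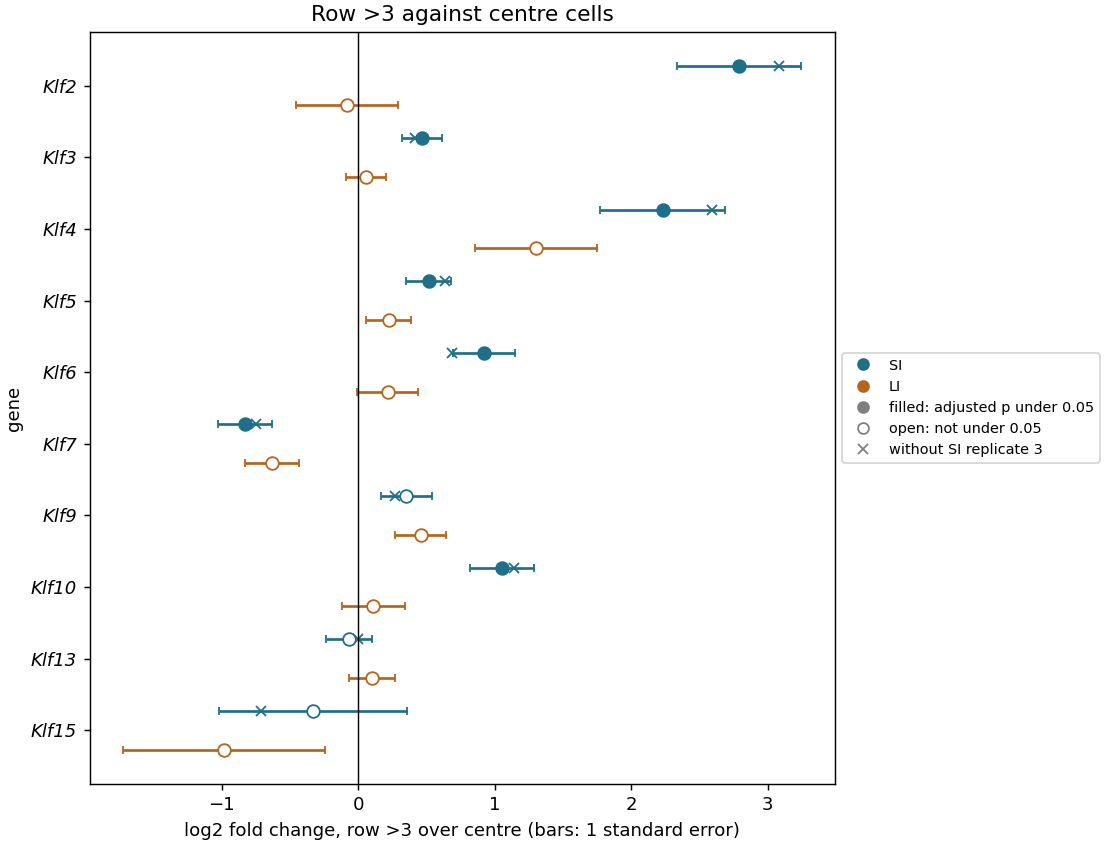
Log2 fold change of row >3 over centre cells for each member in SI and LI, with bars of 1 standard error. Filled points passed the edgeR test and crosses are SI values without replicate 3. Klf2 was at 2.79 in SI and -0.08 in LI, and Klf4 was at 2.23 in SI and 1.30 in LI.

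Whether this step differs by site was tested directly as an interaction. No member passed, and 0% of all genes did (1800 had an unadjusted p under 0.05). Klf2 had the largest value of the members, a log2 difference of 2.87 (SE 0.59, edgeR adjusted p = 0.112). It passed by DESeq2 (2.86, adjusted p = 0.00204), with the replicate block (2.83, edgeR adjusted p = 0.0134) and without SI replicate 3 (3.17, edgeR adjusted p = 0.00569). Of all genes these fits called 0.565%, 2.32% and 3.27%. Over its 19 alternatives the adjusted p of Klf2 ran from 0.00204 to 0.536, and 5 passed. Klf10 had a difference of 0.94 (edgeR adjusted p = 0.486, with the block 0.94 and 0.0230, without SI replicate 3 1.04 and 0.0636), and Klf4 had 0.93 (edgeR adjusted p = 0.936, without SI replicate 3 1.30 and 0.0313).

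SI was compared with LI at each Lgr5 level. In centre cells 3 members were lower in SI and none was higher, while 1.99% of all genes passed and 0.805% were lower in SI. Klf2 was lower by a log2 value of -2.55 (SE 0.46, edgeR adjusted p = 0.00421), with SI libraries at 11.3 to 17.7 normalised counts and LI libraries at 51.0 to 120. The lymphocyte and leukocyte markers, none of them called, had a median log2 fold change of -0.78 there and summed to 2.73 to 15.7 CPM in SI centre and 8.04 to 17.9 CPM in LI centre. At the border their median was -1.12, but their summed level was not lower in SI. It had a median of 22.3 CPM and a highest value of 30.3 CPM in SI border. In LI border these were 13.7 and 19.8 CPM, and the 2 groups overlapped. The part of these markers in the Klf2 values was not tested. Klf6 was at -1.22 (SE 0.23, edgeR adjusted p = 0.00570), with 1089 to 1270 in SI and 2410 to 2748 in LI. Klf10 was at -1.09 (SE 0.24, edgeR adjusted p = 0.0159), with 408 to 519 in SI and 798 to 1090 in LI. On TMM-scaled CPM 6 of 10 members had libraries that did not overlap, each lower in SI, as did 18.3% of all genes. On normalised counts it was 4 of 10, since Klf3 and Klf5 overlapped, and 18.2% of all genes. Klf10 missed the threshold without SI centre replicate 1 or 2 or LI centre replicate 3 (-1.06, -1.02 and -0.95, edgeR adjusted p up to 0.107). Without SI replicate 3 the values were -2.62, -1.16 and -1.17, all past the threshold, and Klf4 (-1.31, edgeR adjusted p = 9.91e-04) and Klf5 (-0.63, edgeR adjusted p = 0.00169) also passed, where 10.9% of all genes did.

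In border cells 2 members passed, both lower in SI, while 1.76% of all genes passed and 0.606% were lower in SI. Klf6 was at -0.98 (SE 0.23, edgeR adjusted p = 0.0259), with 942 to 1856 normalised counts in SI and 2365 to 2608 in LI. Klf2 was at -1.81 (SE 0.46, edgeR adjusted p = 0.0460), with 17.9 to 47.2 in SI and 71.5 to 111 in LI. Klf6 was past the threshold in 8 of 13 alternatives and Klf2 in 3 of 13. In the fit without SI replicate 3, Klf6 was at -1.32 (edgeR adjusted p = 2.87e-05) and Klf2 at -1.48 (edgeR adjusted p = 0.104), and Klf4, Klf5 and Klf10 passed, where 8.11% of all genes did. Libraries did not overlap for 3 of 10 members and for 15% of all genes. Leaving out SI border replicate 1 or 2, or any LI border library, left no member past the threshold, with Klf6 at -1.04 to -0.79 and Klf2 at -2.14 to -1.67. Blocked on replicate number across both sites, Klf10 was at -0.61 (edgeR adjusted p = 0.0487) in place of -0.57 (edgeR adjusted p = 0.259), and 4.27% of all genes passed.

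In row >3 cells no member passed, while 4.09% of all genes did (4195 had an unadjusted p under 0.05), and DESeq2 called none of the members. Klf9 was at -0.54 (SE 0.19, edgeR adjusted p = 0.126) and Klf6 at -0.52 (SE 0.22, edgeR adjusted p = 0.246), both without overlap on TMM-scaled CPM, as were 4 of 10 members and 17.7% of all genes. On normalised counts Klf9 overlapped and Klf3 did not. When SI replicate 3 was left out they were at -0.60 (edgeR adjusted p = 0.0390) and -0.68 (edgeR adjusted p = 0.00947), where 12.2% of all genes passed. Klf2 was at 0.32, with SI at 73.4 to 155 and LI at 75.6 to 94.3 normalised counts, which overlapped. The comparisons of a site with centre cells and of the sites at the centre share those centre libraries.

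**Figure D3:**
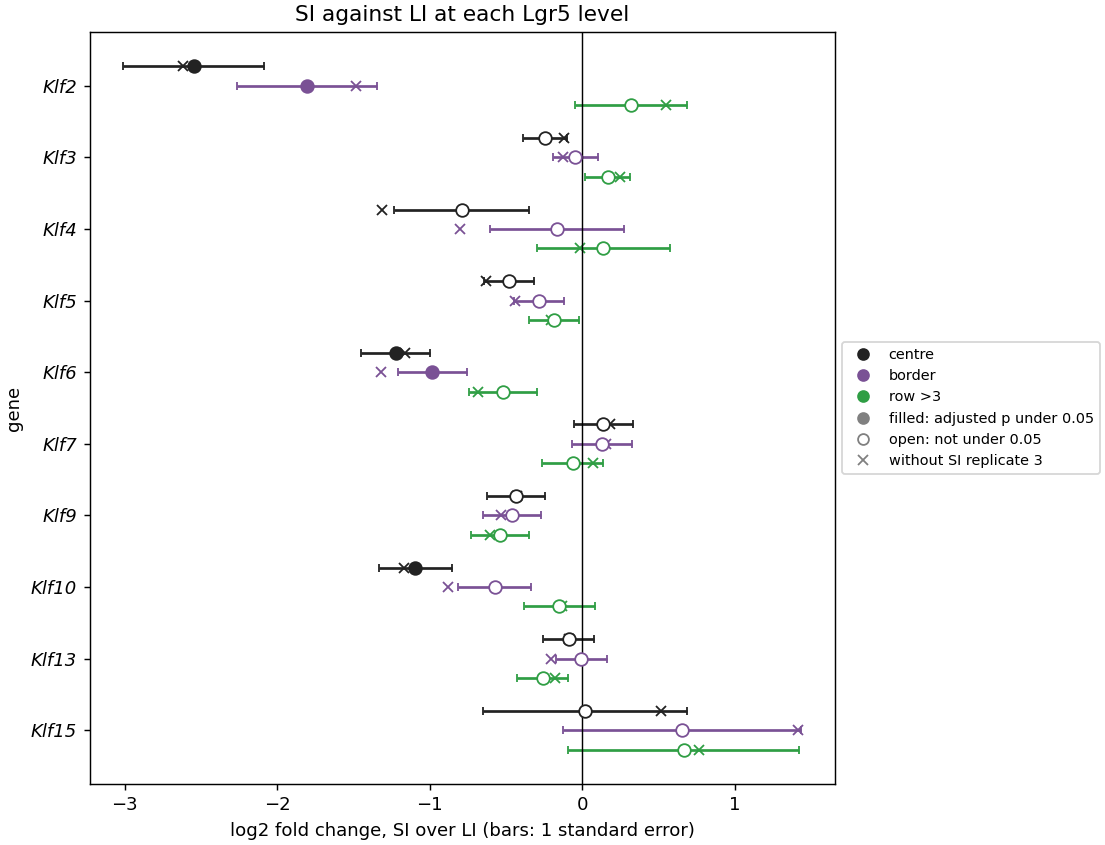
Log2 fold change of SI over LI for each member at each Lgr5 level, with bars of 1 standard error. Filled points passed the edgeR test and crosses are values without SI replicate 3. In centre cells Klf2 was at -2.55, Klf6 at -1.22 and Klf10 at -1.09.

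Immediate-early genes, which cells switch on within minutes of a stimulus or of handling, were lower in SI at each Lgr5 level. Their summed level over 15 genes was 1177 to 1549 CPM in SI centre and 3442 to 4154 CPM in LI centre, and 12 of the 15 were lower in SI centre. Fos was at -2.13 on the log2 scale and Jun at -1.38. At the border 12 of 15 were lower in SI, and in row >3 cells 12 of 15, where Klf6 was at -0.52 but Klf2 at 0.32 and Klf10 at -0.15. Of all genes, 0.805% were lower in SI at the centre, 0.606% at the border and 1.32% in row >3 cells. In SI from centre to row >3, Fosb, Junb and Jund rose and Myc fell. The part of this list in the member values was not tested.

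**Figure D4:**
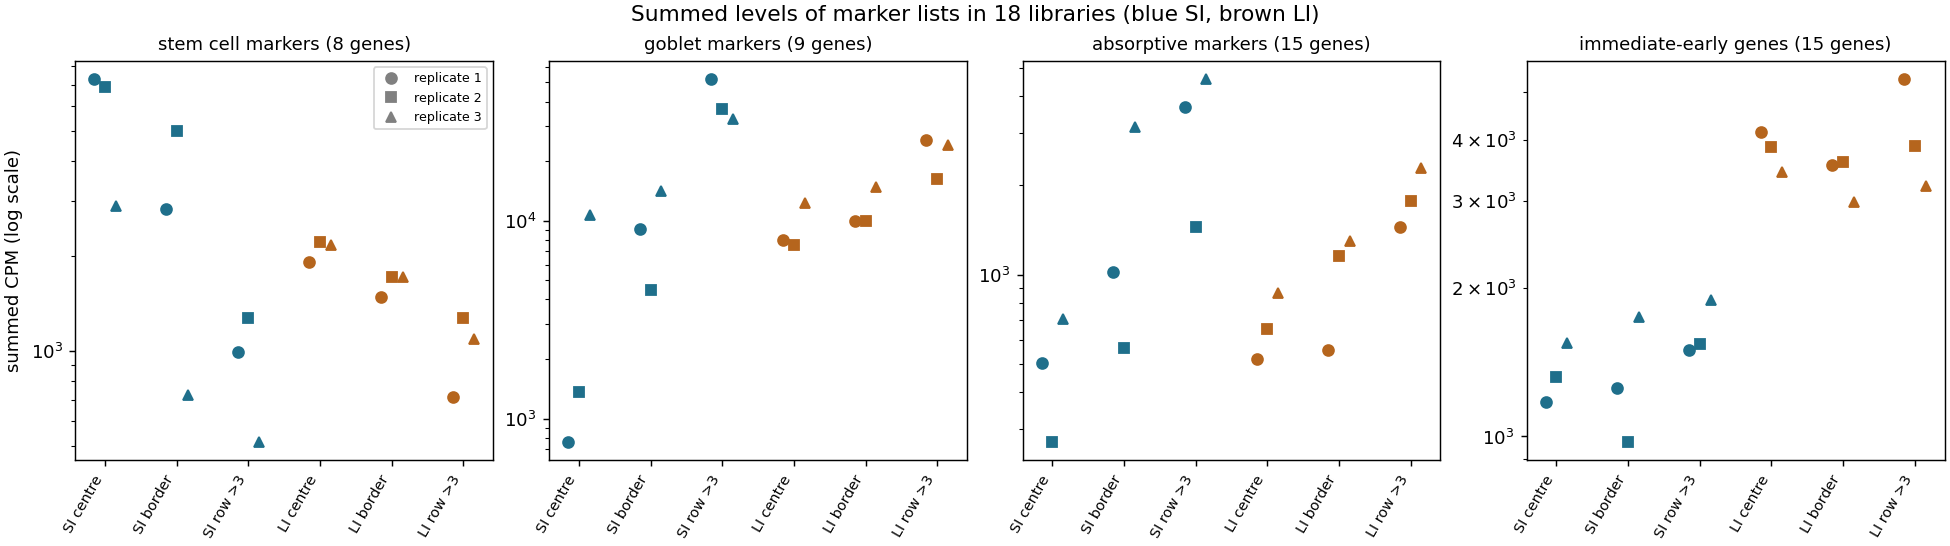
Summed CPM (log axis) of stem cell, goblet and absorptive markers and of immediate-early genes in the 18 libraries, points shaped by replicate number. Goblet markers in SI centre replicate 3 stood at 10741 CPM against 761 and 1360 in the other SI centre libraries.

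The counts of the next 4 lists stand beside 13.2% of all genes, or 28.6% of those with at least 10 CPM, called in SI row >3 against centre. Of the other Klf genes, 6 of 7 had counts. Klf11, a repressor close to Klf10, fell by 0.76 from SI centre to row >3 (SE 0.22, edgeR adjusted p = 0.0257), and no other gene of that list passed there. The Sp genes share the zinc fingers and the GC box. Of 8 tested in SI row >3 against centre, 1 rose and 2 fell. Sp5, a Wnt target, fell by 3.10 (SE 0.64, edgeR adjusted p = 0.00327) and Sp4 fell by 1.13, while Sp6 had 0 counts in SI centre and a mean of 0.580 CPM in SI row >3. Of 14 cofactors and ubiquitin ligases of Klf proteins, Sin3a (-0.64) and Hdac2 (-0.58), both of a corepressor complex, fell there and 12 did not pass. Of 10 genes linked to Klf4 or Klf5, 3 rose and 1 fell. Cdkn1a, an inhibitor of the cell cycle, rose by 3.58 (SE 0.47, edgeR adjusted p = 1.40e-04) and Alpi, an enterocyte phosphatase, by 2.79. Muc2 rose by 2.81, close to the threshold (SE 0.85, edgeR adjusted p = 0.0485), and Myc fell by 1.49 (SE 0.21, edgeR adjusted p = 7.54e-05). None of these 4 lists had a gene past the threshold in LI row >3 against centre.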

How the data were processed

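The authors sorted Epcam+ Lgr5-GFP cells, made libraries with a stranded SMART-Seq kit, demultiplexed with bcl2fastq, trimmed with Skewer, and aligned to mm10 with STAR. For the annotation release and the strand setting, no value is given in the labels or methods. The deposited raw counts are whole reads per gene and library. The deposited normalised counts are a signal, the raw counts divided by 1 size factor per library, by the authors with DESeq2, and each ratio was constant within a library. Replicates were not pooled.

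From the counts, edgeR 4.0.16 (R 4.3.3) fitted 1 quasi-likelihood model over the 6 groups, with TMM factors and robust dispersions, on the 26717 genes with a mean count above 0. P-values were Benjamini-Hochberg adjusted over these genes, with a threshold of 0.05. The standard error is the log2 fold change divided by the root of F. The fit was tested on simulated data. Members and lists were chosen with earlier results of these data known. The text names all 10 members, called genes of the lists, and for Klf4, Klf5 and Klf6 the 3 genes most like them. Libraries with the same replicate number deviated together within a site (r of 0.240 to 0.678 in SI and 0.290 to 0.568 in LI over 12977 genes), so a fit with the number as a block is given where it changes a call. Across sites r was -0.093 to 0.317, and it was above 0.1 in all 3 pairs of border libraries (0.109 to 0.159) but not of centre or row >3 libraries. A block over both sites is therefore given beside the border results, and for the centre only under the dependence on processing. Gene positions and exon lengths are from GENCODE on GRCm38. Alternatives were DESeq2 1.42.0, other scalings and filters, replicate blocks, and libraries left out. Figures were drawn with matplotlib 3.10.9.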

Additional observations from a re-analysis of the deposited data

How the results depend on the processing

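The count of members called was 7 in SI row >3 against centre and ranged from 5 (library size only) to 7 over the alternatives, with Klf2, Klf4, Klf6, Klf7 and Klf10 called in every one of 13 alternatives each. With the replicate block within site, 1 member (Klf4) was called in SI border against centre, 1 (Klf4) in LI row >3 against centre and 2 in the site difference, against 0 in each without it, and it changed no other call within a site. In SI against LI at the centre, the count was 5 in place of 3 with a block over all libraries (adding Klf4 at -0.89 and Klf5 at -0.49) and 5 without SI replicate 3. At the border it was 2, and 1 with RLE factors, 1 with library size only, 1 with the legacy quasi-likelihood fit (an alternative chosen after seeing the data) and 4 without SI replicate 3. In row >3 cells it was 2 in place of 0 without SI replicate 3. In the site difference it was 1 by DESeq2 and 2 without SI replicate 3. Leaving out 1 library gave 0 to 2 members at the border, 2 to 4 at the centre, 5 to 7 in SI row >3 against centre, and 0 to 1 in the site difference, where the 1 was Klf2 without SI centre or row >3 replicate 3. Klf4 in SI against LI border cells changed sign with 1 library left out, from -0.84 to 0.15, at 0.01 without SI border replicate 1, 0.15 without replicate 2 and 0.00289 without LI border replicate 3, against -0.16. The cause was not tested. The block within site was not run between sites, since it removes the replicate spread that such a comparison is tested against. Klf2 and Klf15 had the lowest counts and, in SI row >3 against centre, standard errors of 0.45 and 0.69, against 0.15 for Klf3. Klf4, at far higher counts than Klf2, had a standard error of 0.46 there. Over all genes, DESeq2 called 209 in SI border against centre in place of 3, 82 in LI row >3 against centre in place of 5, 151 in the site difference in place of 0, 1229 in SI against LI centre cells in place of 532, 1212 at the border in place of 470 and 1682 in row >3 cells in place of 1092. The block within site called 6103 genes in SI row >3 against centre in place of 3518, 620 in SI border against centre, 692 in LI row >3 against centre and 620 in the site difference. Without SI replicate 3 the counts were 252 in SI border against centre, 4465 in SI row >3 against centre, 2854, 2122 and 3184 between the sites at the centre, border and row >3, and 857 in the site difference. Scaling by library size alone moved the median log2 fold change of genes with at least 10 CPM by -0.19 in SI and -0.12 in LI for row >3 against centre. With 1 library left out, the share of all genes called was 7.44% to 14.3% in SI row >3 against centre, and between the sites 0.679% to 4.66% at the centre, 0.504% to 3.24% at the border and 1.43% to 6.34% in row >3 cells, lowest without SI row >3 replicate 1, LI centre replicate 3, LI border replicate 3 and SI row >3 replicate 1, and highest without the SI replicate 3 library of the centre, centre, border and row >3.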

Other observations

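Some pairs of members varied together over the 18 libraries and others did not. On log2 CPM, Pearson's r was 0.911 between Klf5 and Klf10, 0.904 between Klf6 and Klf10 and 0.845 between Klf4 and Klf5. Klf7 and Klf4 had -0.77, Klf13 and Klf15 -0.63, Klf4 and Klf15 -0.44, and Klf2 and Klf13 -0.005. After group means were removed, Klf4 and Klf5 had 0.846 and Klf4 and Klf10 0.813, while Klf2 and Klf4 had -0.10. Klf15 had -0.78 with Klf4, -0.74 with Klf5 and -0.73 with Klf13. SI replicate 3 was the highest library of Klf4 and of Klf5 in each SI group. These are descriptions over libraries that differ in site, sort level and depth.

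Among 8689 genes with a mean of at least 10 CPM, the genes most like Klf4 over the 18 libraries were Krt19, a keratin of simple epithelia (r 0.969), Mvp (0.967) and Cpeb4 (0.964). Those most like Klf5 were Ucp2 (0.974), Celsr1 (0.970) and Epas1 (0.969), and those most like Klf6 were Azin1 (0.963), Pon3 (0.958) and Pgap1 (0.948).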
